A study of Mus musculus with 4 samples.

Results

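The 10 genes described here code for platelet-derived growth factors (Pdgfa, Pdgfb, Pdgfc), their receptors (Pdgfra, Pdgfrb), vascular endothelial growth factors (Vegfa, Vegfb, Vegfc) and the neuropilin co-receptors (Nrp1, Nrp2). They were taken by symbol from the 27357 Ensembl gene IDs of the deposited tables, and all 10 were found. RNA was sequenced from isolated Leydig cells, which lie between the seminiferous tubules and make testosterone, of male mice that were wild type (WT, 2 libraries) or carried a C2orf74 knockout (KO, 2 libraries). Every mouse, WT or KO, was on a high-fat diet from 8 weeks of age for 12 weeks, so no group on another diet enters the comparison. The labels give no allele, no tissue-specific driver and no strain, and they do not say whether the libraries of a genotype came from separate animals. P-values therefore describe how far these libraries scatter, and that scatter may be technical.

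PDGF ligands are secreted dimers that bind receptor tyrosine kinases. PDGF receptor alpha binds the A, B and C chains and PDGF receptor beta binds the B chain best. In the developing testis, PDGF-A acting on receptor alpha is needed for Leydig cell formation, and in vessels PDGF-B from endothelium recruits pericytes that carry receptor beta. VEGF-A drives blood vessel growth and VEGF-C drives lymphatic growth, both through endothelial receptors, while neuropilins are co-receptors shared by VEGF and class 3 semaphorins.

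Depth, worked out from the spacing of the deposited values, was 13847807 to 15817093 reads per WT library and 15694389 to 19764004 per KO library. The steroidogenic marker Cyp11a1 was present in every library, at 415 and 402 RPKM in WT and 360.3 and 299.7 in KO (reads scaled to gene length and to library depth). The summed level of 8 Leydig cell markers was 1024 to 1195 RPKM in WT and 1082 to 1118 in KO, but its members went both ways, 5 higher and 3 lower in KO. Named after their values were seen, Insl3 was at 52.1% of its WT mean and Hsd3b1 at 147%. Markers of other cells were present too. Sertoli cell markers summed to 16.8 and 18.1 RPKM in WT and 15.7 and 11.9 in KO, and germ cell markers to 2.24 and 1.18 in WT and 3.48 and 3.27 in KO. The mouse gene for C2orf74, 1700093K21Rik, had 4 reads in WT replicate 2 and 0 in the other 3 libraries, which is too few to check the labels. Among 12391 genes tested with limma, 0 passed a false discovery rate (FDR) of 0.05, with 0.124 as the lowest adjusted p; at an unadjusted p under 0.05, 919 were lower in KO and 536 higher, or 749 and 662 after quantile normalization. With voom on recovered reads 0 passed as well.

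Several PDGF and VEGF ligand genes stood lower in KO and 1 receptor gene stood higher, but none of the 10 genes passed the test. Pdgfb was at 50.7% of its WT mean in KO and Vegfc at 42.5%, and Pdgfa, Pdgfc, Vegfa and Pdgfrb were at 62.5% to 68.1%. Pdgfra, the most abundant of the 10, was at 132%. Both KO libraries lay below both WT libraries for 6 of the 10 genes, against 25.0% of all tested genes, and above them for 1, against 19.7%. At an FDR of 0.05, 0 of the 10 passed, as did 0.0% of all genes in either direction. At an unadjusted p under 0.05 in limma, 4 were lower (background 7.42%) and 1 was higher (background 4.33%); with voom on recovered reads, 0 of the 10 passed the FDR, and 6 were lower (7.39% of 10857 genes) and 1 higher (4.61%) at that p. By sign alone, 8 of the 10 had a log2 change below 0 (background 53.8%) and 2 above 0 (background 46.2%). At a cut outside the plan of tests, 5 had a log2 change of -0.5 or less (background 2.84%). Vegfa (-0.52) and Pdgfa (-0.55) lay near that cut. The median log2 change was -0.42 over the 10 genes and -0.02 over all tested genes. Because the 10 genes were chosen with earlier results of these data known, no test of the group was made.

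**Figure D1:**
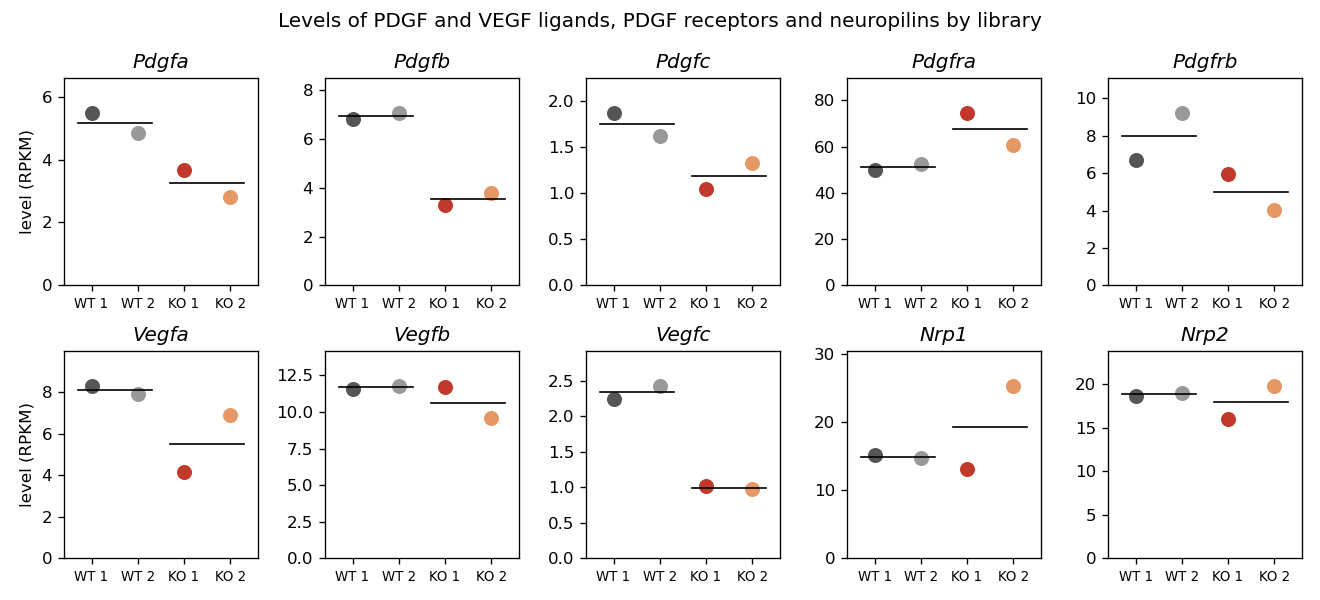
Level of each gene in RPKM (vertical axis, starting at 0) in the 4 libraries (horizontal axis); points are libraries and black lines are the means of the 2 libraries of a genotype. The KO points lie below the WT points for Pdgfa, Pdgfb, Pdgfc, Pdgfrb, Vegfa and Vegfc and above them for Pdgfra, and the groups overlap for Vegfb, Nrp1 and Nrp2.

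Pdgfb (ENSMUSG00000000489, chr15:79995874-80014977, minus strand, GRCm38) codes for the PDGF B chain, which endothelial cells secrete. Its level was 6.83 and 7.06 RPKM in WT and 3.28 and 3.76 RPKM in KO, from 276, 326, 150 and 217 reads. The WT libraries differed by little from each other, and both KO libraries lay well below them. On the log2(RPKM + 1) scale, used for all log2 changes here, Pdgfb had a KO minus WT difference of -0.82 ± 0.10 (SE; 95% interval -1.07 to -0.57; limma unadjusted p = 0.000368, adjusted p = 0.132). By unadjusted p it ranked 34 of 12391 genes. Its adjusted p in limma was 0.0347 without KO replicate 1 and 0.0385 without KO replicate 2, fits in which the remaining KO library is assumed to vary like the WT pair, and 0.601 and 0.555 without WT replicate 1 or 2.

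Beside Pdgfb, the markers of blood vessel endothelium were lower in KO. The 10 endothelial markers summed to 31.5 and 35.9 RPKM in WT and 21.8 and 17.7 in KO. Each of the 10, tested or not, had both KO libraries below both WT libraries, against 25.0% of all tested genes. No such share was worked out for genes below the filter on low values, to which the untested markers belong. Of the 5 that passed the filter on low values, Cldn5, Esam and Sox18 did so through WT libraries alone, so the count of tested markers that lay lower says nothing. Pecam1 had 0.858 and 1.16 RPKM in WT and 0.338 and 0.561 in KO, and Cdh5 had 13.2 and 13.6 in WT and 11.3 and 6.96 in KO. Scaled to 100 RPKM of the summed endothelial list, Pdgfb stood at 21.7 and 19.7 in WT and at 15.0 and 21.2 in KO, so on this scale the groups overlapped. Cdh5 and Eng supply most of that sum; against the other 8 markers, a scaling chosen after seeing the data, Pdgfb stood at 84.5 and 63.99 in WT and at 126 and 92.3 in KO, higher in both KO libraries. In bulk samples, fewer cells of a type and less RNA per cell cannot be told apart. The part of the endothelial cells in the Pdgfb difference was not tested.

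By Euclidean distance between centred log2 values over the 4 libraries, the nearest to Pdgfb among 10691 named protein-coding genes were Procr (distance 0.0932), Esam (0.0940) and Des (0.102), and 16 genes lay within 0.2. Procr codes for the endothelial protein C receptor, Esam for an endothelial adhesion molecule and Des for a muscle filament protein. Procr had 6.93 and 7.91 RPKM in WT and 3.64 and 4.06 in KO. Esam had 2.12 and 2.32 in WT and 0.845 and 0.900 in KO. Des had 5.75 and 6.0 in WT and 2.99 and 3.06 in KO. With 4 libraries, such likeness describes mainly the difference between genotypes. Esam is also on the endothelial list and passed the filter on low values through WT libraries alone, and Des is on the myoid and pericyte list.

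Pdgfa (ENSMUSG00000025856, chr5:138976014-138997370, minus strand, GRCm38) codes for the A chain, a ligand of receptor alpha. It had 5.49 and 4.84 RPKM in WT and 3.68 and 2.81 RPKM in KO (237, 239, 180 and 173 reads). The groups did not overlap, and KO replicate 2 was the lowest library. The log2 change was -0.55 ± 0.14 (SE; limma unadjusted p = 0.010, adjusted p = 0.288). An antisense gene, 6330403L08Rik, shares 813 exonic bases with Pdgfa and stood at 0.953 to 1.5 RPKM; the strand setting of the counting is not given in the sources used here, so reads of the pair cannot be told apart where they overlap. Relative to 100 RPKM of the summed Leydig markers, Pdgfa stood at 0.459 and 0.473 in WT and at 0.329 and 0.259 in KO; Cyp11a1 and Hsd3b1, which differ between genotypes in opposite directions, supply most of this sum, here and wherever it is used.

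Pdgfc (ENSMUSG00000028019, chr3:81036416-81214040, plus strand, GRCm38) codes for the C chain, which is secreted in a latent form and freed by proteolysis. It was the lowest of the 3 PDGF ligands, at 1.87 and 1.63 RPKM in WT and 1.05 and 1.33 RPKM in KO (132, 131, 84 and 134 reads). The KO libraries lay below the WT libraries, but the 95% counting interval of KO replicate 2, 1.12 to 1.58 RPKM, overlapped that of WT replicate 2, 1.36 to 1.93. The log2 change was -0.33 ± 0.15 (SE; limma adjusted p = 0.469). With a pseudocount of 0.1 it was -0.52 and with voom on recovered reads -0.54, where the adjusted p-values were 0.482 and 0.378.

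Summed over Pdgfa, Pdgfb and Pdgfc, the level was 14.2 and 13.5 RPKM in WT and 8.00 and 7.90 RPKM in KO. Pdgfd, which is not in this sum, stood at 35.3 and 33.2 RPKM in WT and 36.8 and 53.0 in KO, so the sum is not the level of all PDGF ligands. The sums of the KO libraries were close to each other although their single genes differed: Pdgfa was lower and Pdgfb and Pdgfc were higher in KO replicate 2 than in KO replicate 1. Pdgfb made up 48.1% and 52.2% of the sum in WT and 40.9% and 47.6% in KO. The share of Pdgfa overlapped, at 38.7% and 35.8% in WT and 45.9% and 35.5% in KO. These shares depend on the gene lengths behind RPKM. The values of Pdgfb are whole reads at a length of 2918 bases, against 4161 in GENCODE M21, and those of the other 9 genes at their GENCODE M21 lengths.

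**Figure D2:**
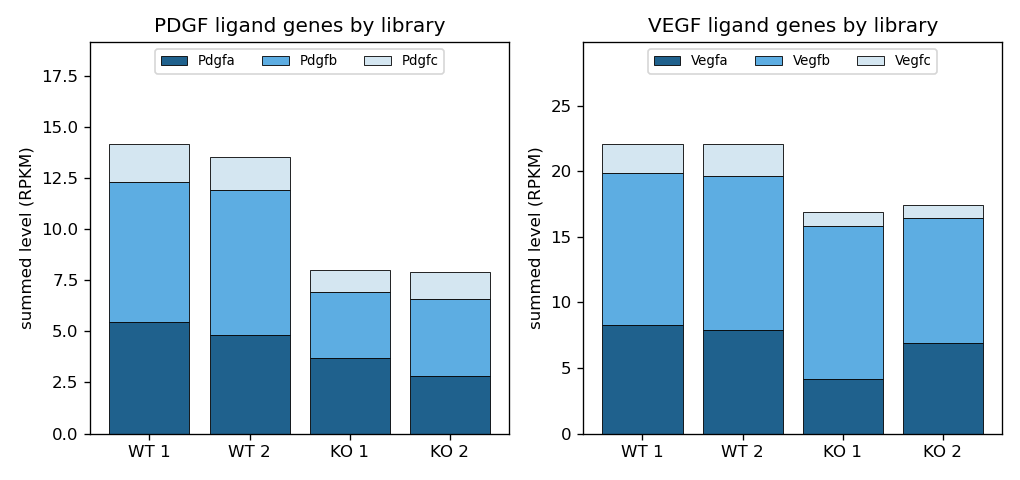
Summed level in RPKM of Pdgfa, Pdgfb and Pdgfc (left) and of Vegfa, Vegfb and Vegfc (right) in each library, with each gene as a segment of the bar. Pdgfd and Vegfd, which stood above these genes in every library, are not in the sums. The PDGF sum is 14.2 and 13.5 in WT and 8.00 and 7.90 in KO, and the VEGF sum is 22.1 in each WT library and 16.9 and 17.4 in KO.

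Pdgfra (ENSMUSG00000029231, chr5:75152292-75198215, plus strand, GRCm38) codes for PDGF receptor alpha, a marker of interstitial stroma and Leydig progenitors. It had 50.1 and 52.6 RPKM in WT and 74.6 and 60.6 RPKM in KO, from 6952 to 12007 reads. Both KO libraries lay above both WT libraries, and KO replicate 1 was the highest. Its log2 change was 0.38 ± 0.12 (SE; 95% interval 0.07 to 0.70; limma unadjusted p = 0.0251, adjusted p = 0.363). Without KO replicate 1 it was 0.24 (limma adjusted p = 0.224), and without WT replicate 1 or 2 the limma adjusted p was 0.992 and 0.892. A gene on the other strand, Gm42803, shares 166 exonic bases with Pdgfra and stood at 0.112 to 0.160 RPKM. The 2 WT libraries gave non-overlapping counting intervals, 48.9 to 51.3 and 51.4 to 53.7 RPKM, and the 2 KO libraries did so too, 73.3 to 75.96 and 59.5 to 61.7.

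Other stromal markers lay in both directions. The 10 fibroblast and interstitial stroma markers summed to 323 and 353 RPKM in WT and 292 and 252 in KO. Of the 9 tested, 6 were lower, against 53.8% of all tested genes. Col1a1, a collagen chain, had 100.1 and 121 RPKM in WT and 83.3 and 69.9 in KO. Col1a2, another collagen chain, had 73.6 and 78.2 in WT and 61.4 and 46.5 in KO. Named after their values were seen, Tcf21, a transcription factor of interstitial progenitors, had 24.6 and 22.7 in WT and 25.99 and 31.2 in KO, above WT in both KO libraries like Pdgfra, and Dcn and Nr2f2 overlapped between genotypes. The sum is mostly collagen genes. For each 100 RPKM of the summed stromal list, Pdgfra stood at 15.5 and 14.9 in WT and at 25.5 and 24.0 in KO. For the summed Leydig list the same ratio was 4.19 and 5.13 in WT and 6.68 and 5.60 in KO. The part of stromal or Leydig cells in the Pdgfra difference was not tested.

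Pdgfrb (ENSMUSG00000024620, chr18:61045150-61085061, plus strand, GRCm38) codes for PDGF receptor beta, which pericytes and smooth muscle cells carry. Its level was 6.72 and 9.22 RPKM in WT and 5.93 and 4.04 RPKM in KO (510, 799, 510 and 437 reads). The groups did not overlap, but KO replicate 1 lay nearer to WT replicate 1 than the WT libraries lay to each other. The log2 change was -0.59 ± 0.21 (SE; 95% interval -1.12 to -0.06; limma unadjusted p = 0.0362, adjusted p = 0.395). Its size rested on single libraries: leaving out KO replicate 1 gave -0.82 (limma adjusted p = 0.0817), leaving out KO replicate 2 gave -0.36 (limma adjusted p = 0.391), and leaving out WT replicate 2 gave -0.39 (limma adjusted p = 0.945).

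Most myoid and pericyte markers were lower beside it. The 12 markers, of which Acta2 supplied most, summed to 232 and 267 RPKM in WT and 199.8 and 183 in KO. Of the 9 tested, 8 were lower by sign, against 53.8% of all tested genes. Named after their values were seen, Kcnj8 and Abcc9 overlapped between genotypes. Kcnj8 had 1.59 and 3.32 RPKM in WT and 2.55 and 1.81 in KO. Abcc9 had 2.96 and 3.88 in WT and 3.55 in each KO library. Acta2, smooth muscle actin, had 205 and 233 RPKM in WT and 181 and 165 in KO. Myh11, smooth muscle myosin, had 2.48 and 2.90 in WT and 1.71 and 1.65 in KO. Per 100 RPKM of the summed list, Pdgfrb stood at 2.90 and 3.45 in WT and at 2.97 and 2.21 in KO, with overlapping groups. The part of these cells in the Pdgfrb difference was not tested.

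With Pdgfra higher and Pdgfrb lower, the ratio of the receptor levels in RPKM was 7.45 and 5.70 in WT and 12.6 and 15.0 in KO. Both KO libraries lay above both WT libraries. The ratio of Pdgfa to its receptor Pdgfra was 0.110 and 0.0922 in WT and 0.0493 and 0.0463 in KO. The ratio of Pdgfb to Pdgfrb overlapped between genotypes, at 1.02 and 0.766 in WT and 0.552 and 0.932 in KO. No test was made on these ratios.

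Vegfa (ENSMUSG00000023951, chr17:46016993-46032369, minus strand, GRCm38) codes for the main blood vessel growth factor, whose transcription is raised in low oxygen. It had 8.29 and 7.89 RPKM in WT and 4.13 and 6.87 RPKM in KO (492, 535, 278 and 582 reads). Both KO libraries lay below both WT libraries, but KO replicate 2 was nearer to WT than to KO replicate 1. The log2 change was -0.52 ± 0.21 (SE; 95% interval -1.05 to 0.02; limma adjusted p = 0.434). Without KO replicate 2 it was -0.82 (limma adjusted p = 0.0385) and without KO replicate 1 it was -0.21 (limma adjusted p = 0.333), so its size rests on which KO library is used. Gene-level values do not separate the splice forms of Vegfa.

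Macrophage markers followed the same order of libraries in KO as Vegfa. The 10 markers summed to 412 and 309 RPKM in WT and 215 and 329 in KO. Scaled to 100 RPKM of that sum, Vegfa stood at 2.01 and 2.56 in WT and at 1.93 and 2.09 in KO, with overlapping groups. The part of macrophages in the Vegfa difference was not tested. Relative to 100 RPKM of the summed Leydig markers, Vegfa stood at 0.694 and 0.771 in WT and at 0.370 and 0.635 in KO.

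Vegfb (ENSMUSG00000024962, chr19:6982473-6987651, minus strand, GRCm38) codes for a VEGF linked to lipid handling by tissues. It was the highest of Vegfa, Vegfb and Vegfc, at 11.6 and 11.8 RPKM in WT and 11.7 and 9.55 RPKM in KO. The groups overlapped, since KO replicate 1 lay between the WT libraries. Its log2 change was -0.13 ± 0.11 (SE; 95% interval -0.42 to 0.16; limma adjusted p = 0.700). Its share of the summed level of Vegfa, Vegfb and Vegfc was 52.3% and 53.3% in WT and 69.5% and 54.9% in KO. Vegfd, a more abundant VEGF ligand gene at 408 and 383 RPKM in WT and 379 and 418 in KO, is not in that sum.

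Vegfc (ENSMUSG00000031520, chr8:54077606-54187096, plus strand, GRCm38) codes for the lymphatic growth factor of the family. It had 2.24 and 2.43 RPKM in WT and 1.01 and 0.971 RPKM in KO, from 76, 94, 39 and 47 reads. The libraries of each genotype were close together and the groups were far apart, and the 95% counting intervals of the WT libraries (1.77 to 2.80 and 1.96 to 2.97 RPKM) did not overlap those of the KO libraries (0.722 to 1.39 and 0.713 to 1.29). The log2 change was -0.74 ± 0.13 (SE; 95% interval -1.07 to -0.42; limma unadjusted p = 0.00195, adjusted p = 0.192), and in voom on recovered reads, which adds a smaller offset before the logarithm, it was -1.23. Vegfc is near the filter of 1 RPKM, which it passed in 3 libraries; the other 9 genes passed it in all 4. Per 100 RPKM of the summed endothelial list, Vegfc stood at 7.11 and 6.76 in WT and at 4.65 and 5.48 in KO. This separation rests on Cdh5 and Eng: against the other 8 markers Vegfc stood at 27.7 and 21.98 in WT and at 39.0 and 23.8 in KO, and the groups overlapped. Of the lymphatic endothelial markers, Prox1 had 4.51 and 5.17 RPKM in WT and 4.81 and 5.66 in KO, and Lyve1 had at most 0.544 RPKM in any library. For Prox1 and Lyve1 the groups overlapped. Pdpn, named after its values were seen, supplied most of that list's sum. It had 143.6 and 126 RPKM in WT and 95.8 and 116 in KO, lower in both KO libraries. Ccl21a, the remaining marker of that list, went the other way at low values, with 0.332 and 0 RPKM in WT and 0.586 and 0.582 in KO. The part of endothelial cells in the Vegfc difference was not tested.

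The sequence before the transcription start is shown for Pdgfra, which stood higher in KO, and for Vegfc and Pdgfc, which stood lower, as examples of genes with opposite directions whose windows hold no annotated exon. Each run is 250 bases, 5′ to 3′ on the strand of the gene, from RefSeq on GRCm38.p6, and capitals mark the GC box GGGCGG on either strand, a motif bound by Sp family factors. The windows are chr5:75152001-75152250 for Pdgfra, chr8:54077282-54077531 for Vegfc and chr3:81036166-81036415 for Pdgfc, all on the plus strand.
Vegfc: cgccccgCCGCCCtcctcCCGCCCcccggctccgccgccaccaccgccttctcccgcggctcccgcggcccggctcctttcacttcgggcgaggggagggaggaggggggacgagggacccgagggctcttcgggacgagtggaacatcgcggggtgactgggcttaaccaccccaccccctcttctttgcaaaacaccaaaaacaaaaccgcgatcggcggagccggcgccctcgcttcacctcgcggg
Pdgfc: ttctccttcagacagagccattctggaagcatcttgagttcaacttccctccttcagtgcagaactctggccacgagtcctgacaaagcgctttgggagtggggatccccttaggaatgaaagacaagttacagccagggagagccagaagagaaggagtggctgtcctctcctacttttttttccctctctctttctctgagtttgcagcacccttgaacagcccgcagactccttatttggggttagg
Pdgfra: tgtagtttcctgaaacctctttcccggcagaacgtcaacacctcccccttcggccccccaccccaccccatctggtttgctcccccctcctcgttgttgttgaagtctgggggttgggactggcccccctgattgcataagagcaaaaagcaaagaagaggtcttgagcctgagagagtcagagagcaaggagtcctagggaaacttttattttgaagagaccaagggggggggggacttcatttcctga
The Vegfc window held 2 GC boxes and 71.6% G and C, the Pdgfc window 0 and 50.8%, and the Pdgfra window 0 and 54.4%, so Pdgfc, although lower in KO like Vegfc, was nearer to Pdgfra in G and C content. The median G and C content of all 32851 such windows was 52.4%. A GC box was present in 32.7% of them, the hypoxia core ACGTG in 16.6%, the AP-1 motif TGANTCA in 6.75% and TATAA in 22.8%, each searched on both strands, with overlapping matches counted. None of the 3 windows held the hypoxia core, the AP-1 motif or TATAA.

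Nrp1 (ENSMUSG00000025810, chr8:128358604-128503363, plus strand, GRCm38) codes for the neuropilin that binds VEGF-A and semaphorin 3A on endothelium, macrophages and stroma. It had 15.2 and 14.6 RPKM in WT and 13.1 and 25.3 RPKM in KO, from 2053, 2267, 2015 and 4891 reads. KO replicate 1 was the lowest of the 4 libraries and KO replicate 2 the highest, with counting intervals of 12.6 to 13.7 and 24.6 to 26.0 RPKM. Its log2 change was 0.28 ± 0.29 (SE; 95% interval -0.47 to 1.02; limma adjusted p = 0.756). It was 0.73 without KO replicate 1 (limma adjusted p = 0.0278) and -0.17 without KO replicate 2 (limma adjusted p = 0.430), so KO replicate 2 decides its direction. Per 100 RPKM of the summed macrophage markers, Nrp1 stood at 3.67 and 4.75 in WT and at 6.12 and 7.69 in KO.

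Nrp2 (ENSMUSG00000025969, chr1:62703285-62818695, plus strand, GRCm38) codes for the neuropilin that binds VEGF-C and semaphorin 3F and is known from lymphatic endothelium. Its level was 18.7 and 18.97 RPKM in WT and 16.0 and 19.8 RPKM in KO. The KO libraries lay on either side of the WT libraries. The log2 change was -0.08 ± 0.12 (SE; 95% interval -0.38 to 0.22; limma adjusted p = 0.834). The ratio of Nrp1 to Nrp2 was 0.811 and 0.772 in WT and 0.820 and 1.28 in KO.

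**Figure D3:**
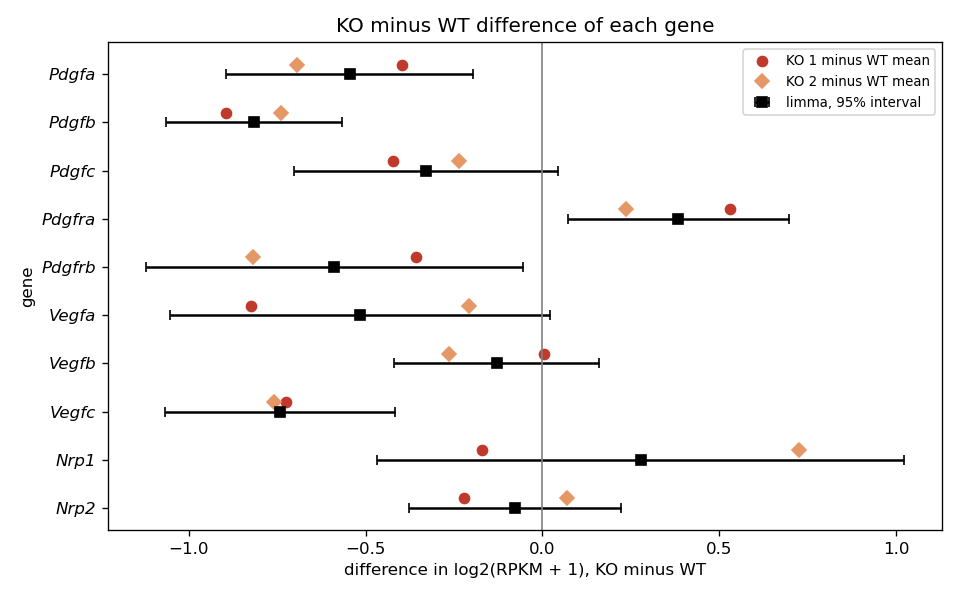
KO minus WT difference on the log2(RPKM + 1) scale (horizontal axis) for each gene (vertical axis); black squares are the limma log2 change with its 95% interval, circles are KO replicate 1 and diamonds KO replicate 2, each minus the WT mean. The KO libraries lie close together for Vegfc (-0.73 and -0.76) and Pdgfb (-0.89 and -0.74) and on opposite sides of 0 for Nrp1 (-0.17 and 0.73).

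Per length, the order of the levels in WT was Pdgfra (51.3 ± 1.75 RPKM, SD, n = 2), Nrp2 (18.8 ± 0.201), Nrp1 (14.9 ± 0.356), Vegfb (11.7 ± 0.152), Vegfa (8.09 ± 0.281), Pdgfrb (7.97 ± 1.77), Pdgfb (6.95 ± 0.165), Pdgfa (5.17 ± 0.454), Vegfc (2.33 ± 0.131) and Pdgfc (1.75 ± 0.174). Neighbours in this order had separate ranges except Vegfa with Pdgfrb and Pdgfrb with Pdgfb. In KO the order was Pdgfra (67.6 ± 9.89 RPKM, SD, n = 2), Nrp1 (19.2 ± 8.61), Nrp2 (17.9 ± 2.69), Vegfb (10.6 ± 1.53), Vegfa (5.50 ± 1.94), Pdgfrb (4.98 ± 1.34), Pdgfb (3.52 ± 0.345), Pdgfa (3.24 ± 0.616), Pdgfc (1.19 ± 0.198) and Vegfc (0.993 ± 0.0309). There the ranges of Nrp1 and Nrp2, of Vegfa and Pdgfrb, and of Pdgfb and Pdgfa overlapped. The exchanges of place between genotypes were those of Nrp1 with Nrp2 and of Vegfc with Pdgfc.

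**Figure D4:**
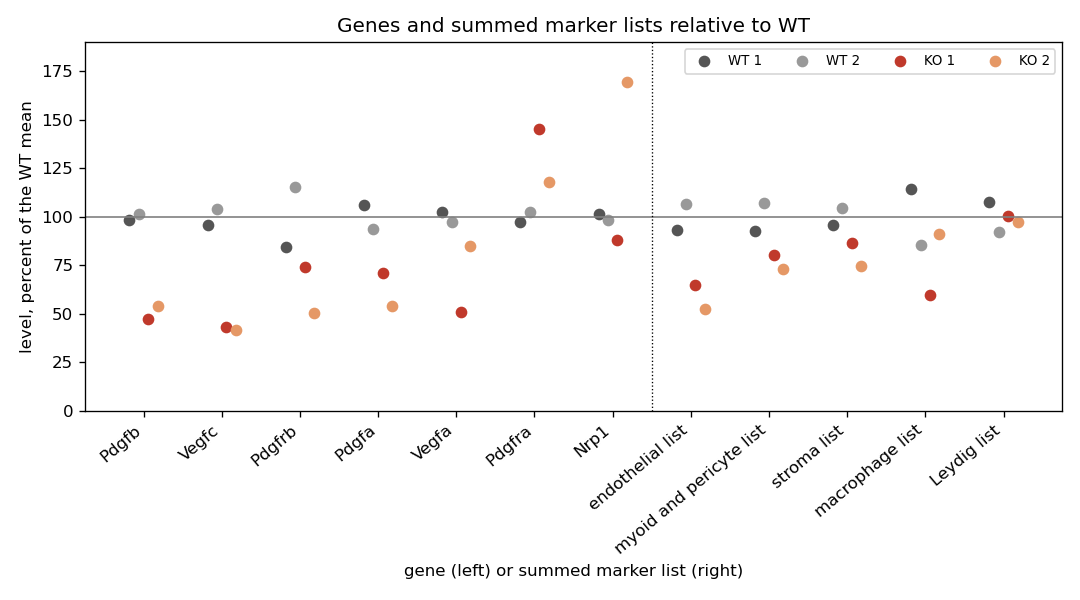
Level in each library as percent of the WT mean (vertical axis) for 7 of the genes (left of the dotted line) and for 5 marker lists by summed RPKM (right); points are libraries. The KO points of the endothelial, myoid and pericyte, and stroma lists lie below the WT points beside those of Pdgfb, Vegfc and Pdgfrb, while those of Pdgfra lie above.

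Other genes of the family lay in both directions. Of 7 further PDGF and VEGF family genes, 4 were tested, of which 3 were higher and 1 lower, with a median log2 change of 0.18 against -0.02 over all genes; 0 passed an FDR of 0.05 and 0 had an unadjusted p under 0.05 in limma. Vegfd, the fourth VEGF ligand, was singled out after its values were seen: it stood at 408 and 383 RPKM in WT and 379 and 418 RPKM in KO, above each of the 10 genes in every library, with overlapping groups (log2 change 0.01). Pdgfd, the fourth PDGF ligand, had 35.3 and 33.2 RPKM in WT and 36.8 and 53.0 in KO, also above Pdgfa, Pdgfb and Pdgfc in every library (log2 change 0.36, limma adjusted p = 0.512). Pdgfrl, a receptor-like gene, had 2.89 and 3.34 RPKM in WT and 5.79 and 3.03 in KO. Pgf, the placental growth factor, had 1.32 and 1.33 in WT and 1.16 and 0.924 in KO, lower in both KO libraries.

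The VEGF receptor genes were below the filter on low values and were not tested. Kdr, the main signalling receptor of VEGF-A, had 0.800 and 0.882 RPKM in WT and 0.254 and 0.588 in KO. Flt1, which also binds VEGF-B, had 0.246 and 0.295 in WT and 0.0896 and 0.169 in KO. Flt4, a receptor of VEGF-C, had 0.105 and 0.246 in WT and 0.0851 and 0.117 in KO. For Kdr and Flt1 both KO libraries lay below both WT libraries, and for Flt4 the groups overlapped. All 3 were below Nrp1 and Nrp2 in every library.

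Among genes for proteins that bind these ligands outside the cell, 3 of 11 tested were lower at an unadjusted p under 0.05 (background 7.42%) and 0 higher (background 4.33%), with 0 past an FDR of 0.05 in limma and a median log2 change of -0.08. Thbs1, a matrix glycoprotein that limits vessel growth, had 55.1 and 59.2 RPKM in WT and 35.8 and 32.5 in KO (log2 change -0.73 ± 0.09 SE, limma adjusted p = 0.132). Gpc1, a heparan sulfate proteoglycan, had 8.30 and 8.20 in WT and 5.59 and 4.6 in KO. Ccn2, a matricellular protein that binds VEGF, had 86.9 and 80.8 in WT and 65.8 and 46.5 in KO. These 3 had the smallest p of the list, a choice that favours groups that do not overlap. For each, both KO libraries lay below both WT libraries. Of the 11 tested, 5 lay so, against 25.0% of all tested genes, and 2 lay above, against 19.7%.

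Of 10 ligand processing genes 6 were tested, 3 higher and 3 lower, with a median log2 change of -0.01. Plau, the urokinase protease, which activates PDGF-D, had 90.4 and 71.2 RPKM in WT and 53.1 and 62.7 in KO (limma adjusted p = 0.365). Plat, a protease that activates PDGF-C, had 1.15 and 1.69 in WT and 0.704 and 1.05 in KO. Ccbe1, which promotes VEGF-C processing, had 39.3 and 36.9 in WT and 53.6 and 41.2 in KO. Of 12 semaphorin and plexin genes only 3 were tested: Plxna1 (11.2 and 11.6 RPKM in WT, 10.4 and 9.0 in KO), Sema3c (1.77 and 1.33 in WT, 2.76 and 1.92 in KO) and Plxnd1 (18.2 and 19.8 in WT, 20.5 and 16.1 in KO).

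Genes for receptor signalling inside the cell lay near the background, which was 53.8% lower and 46.2% higher over all tested genes. Of 30 tested, 13 were higher and 17 lower, with a median log2 change of -0.03 and 1 in each direction at an unadjusted p under 0.05 in limma: Hras (6.25 and 7.05 RPKM in WT, 4.88 and 4.31 in KO) and Sos2 (12.9 and 12.4 in WT, 14.5 and 17.8 in KO). The adaptor Shc1 had 20.0 and 20.4 RPKM in WT and 17.2 and 17.9 in KO. Of 14 negative regulators, 11 were lower and 3 higher (median -0.13), where 53.8% of all tested genes were lower and 46.2% higher. Spry1, an inhibitor of receptor tyrosine kinase signalling, had 11.98 and 12.2 RPKM in WT and 9.78 and 10.1 in KO. Cblb, a ubiquitin ligase for receptors, had 13.8 and 13.1 in WT and 11.5 and 10.6 in KO, and Socs3, a feedback inhibitor of cytokine receptors, had 17.1 and 20.97 in WT and 15.4 and 15.2 in KO. Spry1 and Cblb were the 2 of the 14 that were lower at an unadjusted p under 0.05 (background 7.42%), with limma adjusted p-values of 0.337 and 0.366.

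Genes of oxygen sensing, which act upstream of Vegfa, gave 3 higher and 4 lower of 7 tested (median -0.10). Epas1, the HIF-2 alpha subunit, which is abundant in endothelium, had 6.68 and 6.94 RPKM in WT and 5.09 and 5.06 in KO (log2 change -0.36 ± 0.08 SE, limma adjusted p = 0.269). Egln1, an oxygen-dependent hydroxylase, had 16.7 and 15.0 in WT and 13.9 and 14.2 in KO. Vhl, which targets HIF for degradation, had 12.2 and 10.5 in WT and 9.29 and 10.5 in KO, where WT replicate 2 and KO replicate 2 were close together. Hif1a, named after its values were seen, had 20.9 and 18.6 RPKM in WT and 15.4 and 33.6 in KO, with KO replicate 1 the lowest and KO replicate 2 the highest library, the order also seen for Nrp1.

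**Figure D5:**
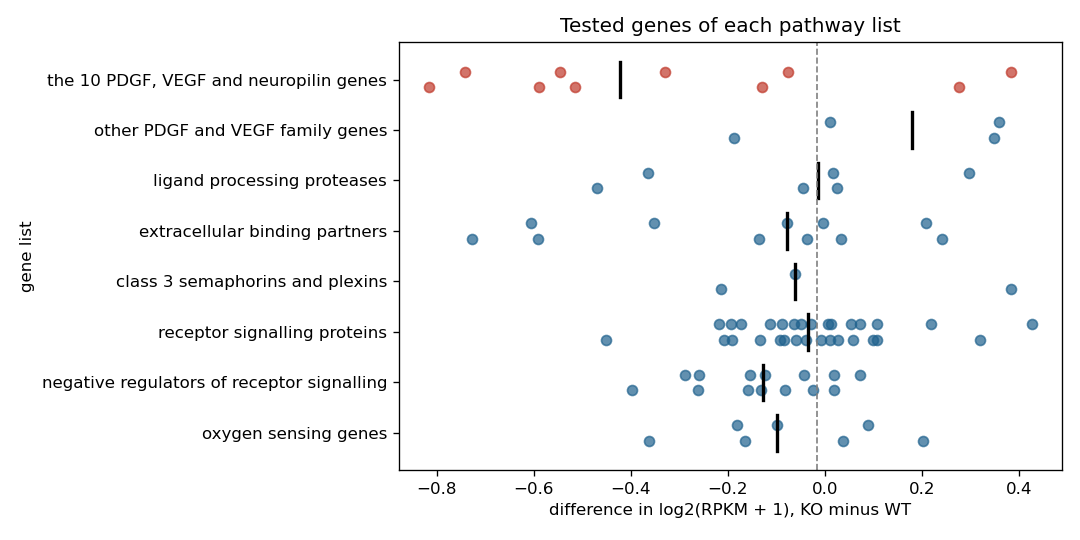
KO minus WT difference on the log2(RPKM + 1) scale (horizontal axis) of each tested gene, by list (vertical axis); points are genes, black bars are list medians and the dashed line is the median of all tested genes at -0.02. The median of the 10 genes is -0.42, and those of the 7 other lists lie between -0.13 and 0.18.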

How the data were processed

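The authors used Trizol for the RNA and Illumina's usual library preparation, per the labels' protocols, and mm9 is named as genome build in the submitters' processing notes. No aligner, counter, strand setting or annotation is named (not given in the sources used here). The deposited values carry no unit and were taken to be RPKM: multiplied by the exonic length in GENCODE M21 (GRCm38), 90.4% to 90.7% of those above 0 are whole multiples of 1 step per library, within 0.01 reads. Coordinates are from that annotation. Of 27357 IDs, 27306 matched a symbol. For Pdgfb the reads were recovered at the smallest length that made all 4 libraries whole. Counting intervals are exact Poisson 95% intervals and leave out any other error.

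All genes that reached 1 RPKM in 2 or more libraries were tested as log2(RPKM + 1), which understates changes of low genes, with limma 3.58.1 in R 4.3.3 (genotype as the only term, trended moderation of the variance, 2-sided p-values adjusted by Benjamini-Hochberg over 12391 genes, with 2 residual and 3.08 prior degrees of freedom). The fit was tested on simulated data. Python 3.11.15 with SciPy 1.17.1 gave the intervals and Matplotlib 3.10.9 the plots. Groups follow the genotype in the labels; replicates 1 and 2 are numbered in deposition order. The genes and lists were chosen with earlier results of these data known. Named beside the 10 genes are the 3 tested genes with the smallest p of each pathway list, the first 2 of each marker list, where they bear on a result, and the 3 genes nearest to Pdgfb; exceptions are marked, and the remaining VEGF family genes were added to complete the family. RefSeq promoter windows were kept for 8 of the 10 genes, with windows on chr18, where Pdgfrb lies, left out. Alternatives were quantile normalization, trimmed-mean rescaling, 2 other filters, a pseudocount of 0.1, no trend, voom on recovered reads, a replicate block and leaving out each library.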

Additional observations from a re-analysis of the deposited data

How the results depend on the processing

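None of the 10 genes passed an FDR of 0.05 under the 8 alternatives that kept all libraries, and none turned direction under quantile normalization, trimmed-mean rescaling, a pseudocount of 0.1 or voom; the other 4 (both filters, no trend, the replicate block) cannot move a log2 change, only its p. The trimmed-mean rescaling and quantile normalization moved the median of all genes by less than 0.1 on the log2 scale. A filter at 5 RPKM removed Pdgfa, Pdgfc and Vegfc, which leaves 2 genes lower at an unadjusted p under 0.05 and 5 with a log2 change below 0; over all 7522 genes tested, 678 were then lower and 294 higher at that p, and 1054 were higher without a filter. With Cdh5 and Eng left out of the endothelial sum, the KO mean of the scaled level went from 87.7% to 147% of WT for Pdgfb and from 73.0% to 126% for Vegfc.

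Leaving out 1 library turned the direction of Vegfb to 0.0047 and of Nrp1 to -0.17 (both without KO replicate 2) and of Nrp2 to 0.0684 (without KO replicate 1). Over these 4 fits the log2 change of Pdgfb ranged from -0.89 to -0.74, of Vegfa from -0.82 to -0.21, of Nrp1 from -0.17 to 0.73, of Vegfb from -0.26 to 0.0047 and of Nrp2 from -0.22 to 0.0684. Genes past an FDR of 0.05 ranged from 0 to 111 higher and 0 to 195 lower, and from 0 to 2 among the 10: Pdgfb and Nrp1 without KO replicate 1, Pdgfb and Vegfa without KO replicate 2. At an unadjusted p under 0.05 the range was 272 to 802 higher and 314 to 1532 lower over all genes, and 0 to 2 higher and 3 to 5 lower among the 10. Without a KO library the spread comes from the WT pair.

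The suffix that 1 library of each genotype has in its title gives a replicate block. The correlation of the deviations within genotypes was -0.096 over 12391 genes. What the suffix marks is not stated, so whether the libraries are paired is not known. With the replicate block 0 genes passed, and Pdgfb had a limma adjusted p of 0.171. At an unadjusted p under 0.05 in limma, 429 genes were then higher and 664 lower. Depth limits Vegfc and Pdgfc, which rest on 39 to 134 reads per library.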
